A study of Bos taurus with 12 samples.

Results

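The vascular endothelial growth factor (VEGF) and angiopoietin systems of the bovine endometrium were described through 10 genes, the ligands VEGFA, VEGFC, PGF, ANGPT1 and ANGPT2 and the receptors FLT1, KDR, FLT4, NRP1 and TEK. Members were picked by their symbol in the annotation of the array, which found all 10 genes, in 11 transcripts and 24 probes of the 26323 transcripts and 61333 probes kept. Endometrial biopsies came from 4 old females (OF), nulliparous and aged 13 to 14 years, 4 young females (YF), primiparous and aged 4 to 5 years, and 4 cows labelled contemporary (CP). Every cow was synchronized and was sampled on Day 15 of the estrous cycle. OF and YF were Holstein clones of 1 donor cow, so the spread between them is that between animals of a single genotype. In OF against YF, age and parity cannot be told apart. The age, parity and clonal status of CP were not given in the sources used here, and CP 1111 was left out by the submitters for a divergent phenotype, which left 3 CP for the comparisons.

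VEGF ligands are secreted proteins that bind tyrosine kinase receptors on endothelial cells and drive the sprouting, growth and permeability of vessels. ANGPT1 and ANGPT2 bind the receptor TEK (TIE2), through which ANGPT1 stabilizes vessels whereas ANGPT2 usually loosens them. The endometrium is among the few adult tissues whose vessels are remodelled in every cycle.

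The probes are 60 bases long, and some are shown here. They belong to FLT1 and FLT4, whose probes disagreed, and to ANGPT1, whose signal was near background. The ANGPT2 probes shown were each well above background on 11 of 12 arrays. FLT4 probe 1 and the probes of KDR, which also disagreed, are not shown. The sequences are written in lower case as the array files give them.
FLT1 probe 1: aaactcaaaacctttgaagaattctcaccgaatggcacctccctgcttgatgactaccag
FLT1 probe 2: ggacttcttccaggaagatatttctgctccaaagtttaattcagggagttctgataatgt
FLT4 probe 2: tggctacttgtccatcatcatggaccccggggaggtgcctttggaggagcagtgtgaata
ANGPT1 probe 1: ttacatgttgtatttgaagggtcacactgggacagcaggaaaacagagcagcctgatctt
ANGPT1 probe 2: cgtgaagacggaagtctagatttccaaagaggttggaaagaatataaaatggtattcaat
ANGPT2 probe 1: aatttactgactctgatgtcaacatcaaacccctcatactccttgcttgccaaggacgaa
ANGPT2 second transcript probe 1: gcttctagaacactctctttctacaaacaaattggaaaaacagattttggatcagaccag

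A level is the log2 of a transcript's processed Cy-3 intensity minus that of the 75th percentile of its array, averaged over the probes of the transcript. Levels are compared between cows and never between genes, since probes differ in brightness. Per animal, values are listed in the order YF 1069, 1070, 1072 and 1127, then OF 0233, 0234, 0245 and 2258, then CP 1068, 1128 and 1129. The scanner software's well-above-background flag held for 71.6% to 74.9% of probes, depending on the array, with 0 saturated. The tissue's markers were present: all 8 epithelial and all 7 stromal genes of their lists passed on the 12 arrays. The arrays lay on 2 slides, and all 3 CP compared lay on slide 2. OF 2258 stood apart from the other 10 cows compared: the mean of its smooth muscle markers, each centred over the arrays, was 4.08 against -1.48 to 2.49, and that of its epithelial markers was -1.86 against -1.10 to 0.88. Member results that rest on this cow are given with and without it.

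Of the 10 members, 9 were well above background on all 12 arrays and entered every comparison. None of the 9 differed between OF and YF at a limma adjusted p of 0.05, a threshold that 0% of the 19755 transcripts tested passed. At an unadjusted p of 0.05 the members counted 0 of 9, beside 2.42% of all transcripts, and in 0 of 9 did the OF not overlap the YF, beside 0.931% of transcripts entirely higher and 0.597% entirely lower in OF. Of the 9 differences 6 were above 0 and 3 below, with a median of 0.07 against 0.01 over all transcripts tested. The fold change rank ordering statistics (FCROS) called 0 of the 10 members, beside 4.94% of all 26323 transcripts.

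In CP against YF, 0 of 9 members passed the adjusted threshold (0% of 19993 transcripts). At the unadjusted threshold 1 of 9 passed, ANGPT2, beside 3.03% of all transcripts. No member separated the groups entirely, beside 1.51% of transcripts higher and 2.32% lower in CP. All 9 members had a higher mean in CP than in YF, with a median difference of 0.29 against -0.02 over all transcripts. In CP against OF, 0 of 9 members passed the adjusted threshold (0% of 19914 transcripts), and 1 of 9, TEK, passed the unadjusted one, beside 4.57%. TEK also was the 1 member of 9 without overlap, higher in every CP, beside 2.86% of transcripts higher and 2.93% lower. The comparisons share cows, and the members are not independent of each other, so their directions were not counted as separate evidence.

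**Figure D1:**
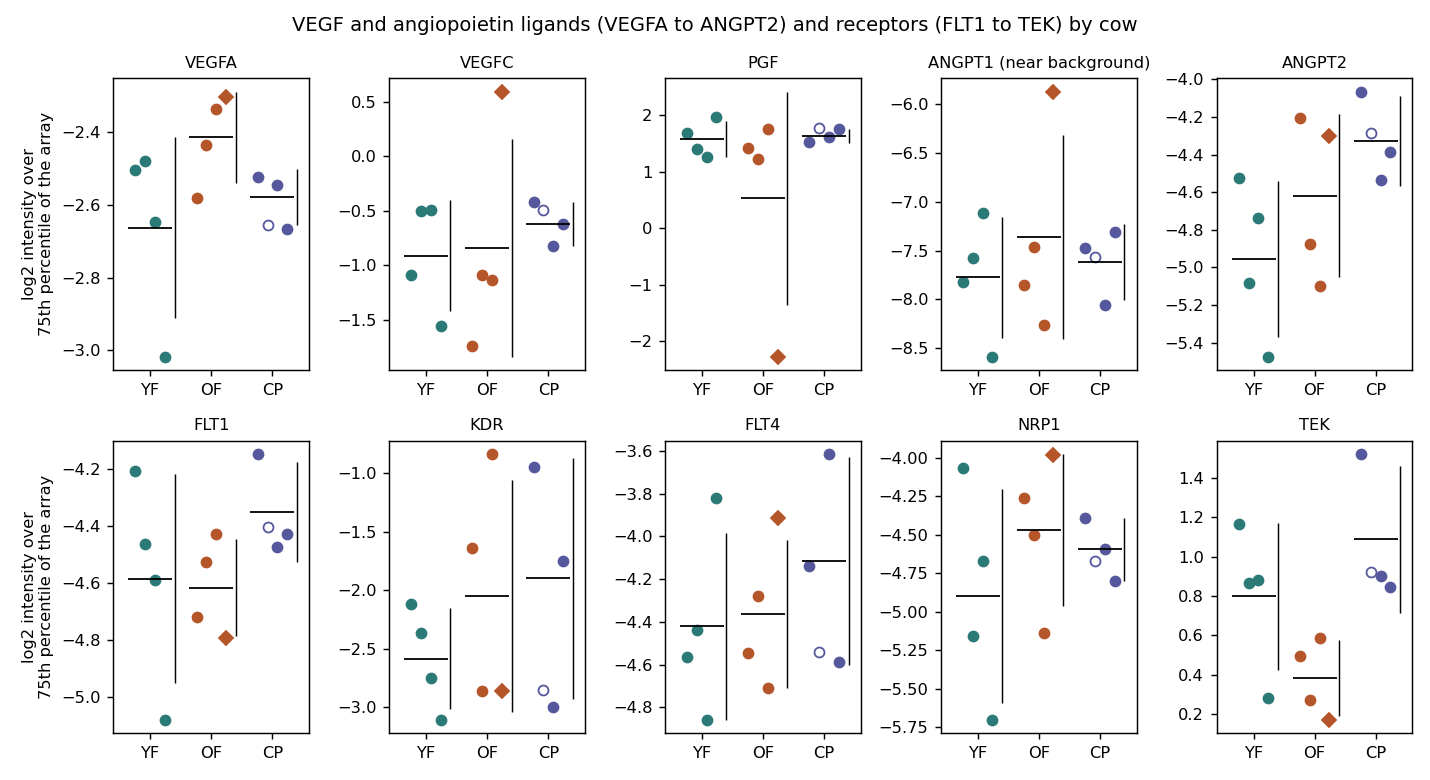
Level of each member (log2 intensity over the 75th percentile of the array) in the 4 YF, 4 OF and 4 CP. Each point is a cow, the diamond is OF 2258, the open circle is CP 1111, the horizontal line is the mean without CP 1111 and the vertical bar is the SD. PGF stands at -2.28 in OF 2258 and at 1.23 or above in every other cow, and TEK is lower in the 4 OF than in each CP.

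**Figure D2:**
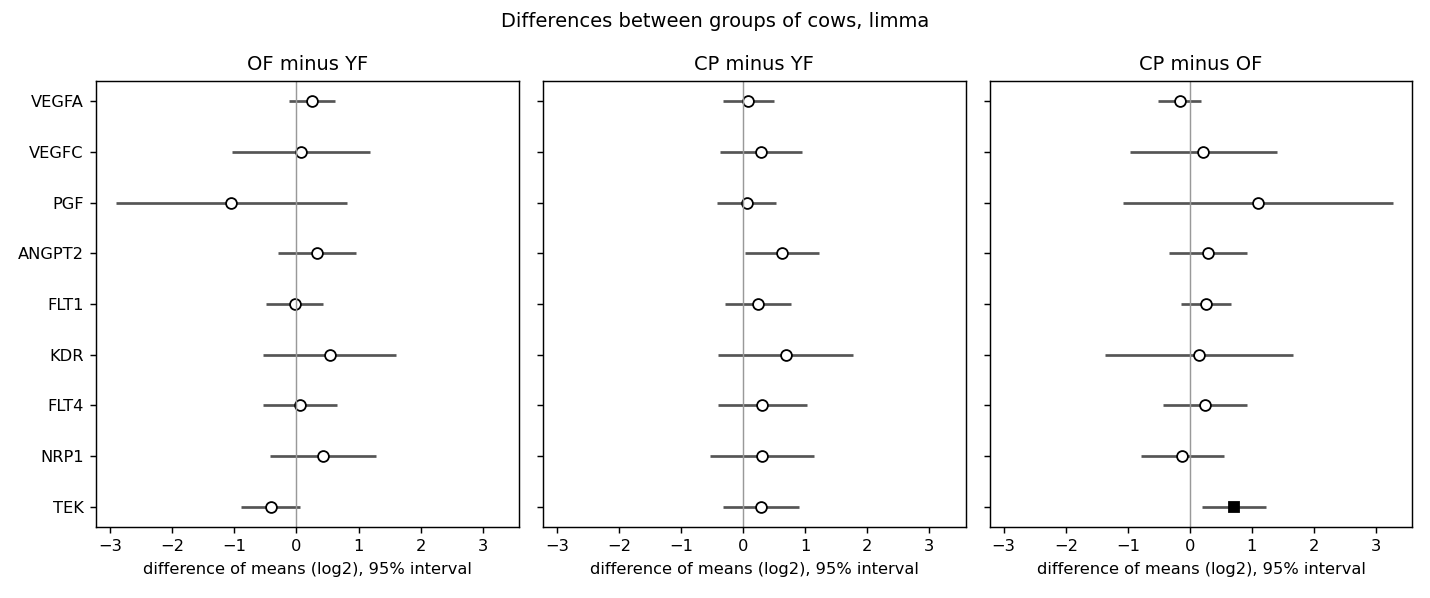
Difference of group means for the 9 members tested (log2), with its 95% interval from limma. The black square marks the comparison in which the groups did not overlap (TEK, CP minus OF, 0.71), and the intervals that lie wholly above 0 are that of TEK and that of ANGPT2 in CP minus YF.

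Among the ligands, VEGFA (chr23:17257357-17261031, assembly UMD3.1 here and below), the main inducer of blood vessel growth, was at similar levels in all groups. Its level was -2.50, -2.48, -2.65 and -3.02 in YF, -2.58, -2.43, -2.33 and -2.30 in OF, and -2.52, -2.54 and -2.67 in CP. Of the OF 3 lay above all YF, but OF 0233 lay within them. The difference OF minus YF was 0.25 ± 0.16 (SE), with a 95% interval of -0.12 to 0.62 (limma adjusted p = 0.999). An exact two-sided permutation test gave p = 0.114, where 4 against 4 cows cannot go below 0.0286. The probes of VEGFA followed each other little over the 12 arrays (r = 0.22).

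PGF (chr10:86595706-86608816), the placental growth factor that binds FLT1, had the widest spread of the ligands, owing to a single cow. The level of PGF was 1.68, 1.40, 1.26 and 1.97 in YF, 1.41, 1.23, 1.76 and -2.28 in OF, and 1.52, 1.62 and 1.76 in CP. OF 2258 lay 11.4-fold below the next lowest cow and 15.0-fold below the median of the others, and the other 3 OF lay inside the range of YF and CP or next to it. Both probes showed it, and they do not overlap in sequence: probe 1 read -3.56 in OF 2258 against -0.03 to 0.61 in the others, and probe 2 read -1.01 against 2.48 to 3.34. The difference OF minus YF was -1.05 ± 0.82 (95% interval -2.92 to 0.82, limma adjusted p = 0.999, exact permutation p = 0.343). Without OF 2258 it was -0.11 ± 0.22, with a 95% interval of -0.62 to 0.40.

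The low PGF of OF 2258 went with low epithelial and high smooth muscle markers in the same cow, as the plot of the genes at the edge of their range shows. EPCAM, an adhesion molecule of epithelia, was 1.10 in OF 2258, 2.50 in YF 1069 and 3.50 to 4.51 in the others. In YF 1069, which had the next lowest epithelial mean (-1.10 over 8 of 8 markers), PGF was 1.68. ACTA2, the smooth muscle actin, was 8.72 in OF 2258 and 7.47 in OF 0234, where PGF was 1.23, and 3.63 to 5.08 in the others. With the mean of the smooth muscle markers as a covariate, the PGF difference between OF and YF was 0.27, with a 95% interval of -1.16 to 1.71. The part of the epithelial share of the biopsy was not tested. In bulk samples of this kind, fewer cells of a type and less RNA per cell cannot be told apart.

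VEGFC (chr27:6999636-7084866), the ligand of FLT4 that drives the growth of lymphatic vessels, moved the other way in OF 2258. VEGFC read -1.09, -0.50, -0.50 and -1.55 in YF, -1.73, -1.08, -1.13 and 0.59 in OF, and -0.42, -0.82 and -0.62 in CP. OF 2258 was the highest of the 12 cows, 2.01-fold above the next, whereas the other 3 OF lay among the lower cows and below all CP. The 4 probes carry 2 sequences, each printed 2 times and sharing 38 bases, and their r was 0.99 or above. The difference OF minus YF was 0.07 ± 0.49 (exact permutation p = 0.971, limma adjusted p = 0.999), and -0.41 ± 0.31 without OF 2258 (95% interval -1.11 to 0.30). The difference CP minus OF was 0.22 ± 0.51 (exact permutation p = 0.743), and 0.70 ± 0.23 without OF 2258 (95% interval 0.14 to 1.25, limma adjusted p = 0.835). Leaving out the only OF that was not below all CP fixes the lack of overlap in advance. In that run 849 of 19914 transcripts were entirely higher in CP, against 570 with all cows.

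Of the 6 lymphatic markers, 3 that were well above background on some arrays were highest in OF 2258 and 1 was lowest. LYVE1, a hyaluronan receptor of lymphatic endothelium, was 0.20 there, -2.26 in OF 0234 and -5.83 to -3.39 in the others. CCL21, a chemokine secreted by lymphatic endothelium, was 0.49, then -1.54 in OF 0234, and was well above background on 6 of 12 arrays. PROX1, the transcription factor of lymphatic endothelium, was -4.37 against -6.28 or less and passed on 5 arrays. PDPN, podoplanin, went the other way, at 0.82 in OF 2258 and 1.92 to 3.84 in the others. RELN was within the range of the others (-5.20, median of the others -4.73). MMRN1 was also highest in OF 2258 (-7.35) but passed on 0 arrays. NRP2, the co-receptor for VEGFC, was -2.30 in OF 2258, -4.12 in OF 0234 and -8.56 to -6.52 in the others, and was well above background on 5 of 12 arrays, so no fold is given. The 3 lymphatic markers measured on all 12 arrays, LYVE1, PDPN and RELN, had means that ranged from -0.15 to 0.65 in OF, -0.66 to 0.16 in YF and -0.21 to 0.15 in CP. The part of lymphatic endothelium in the VEGFC level was not tested.

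**Figure D3:**
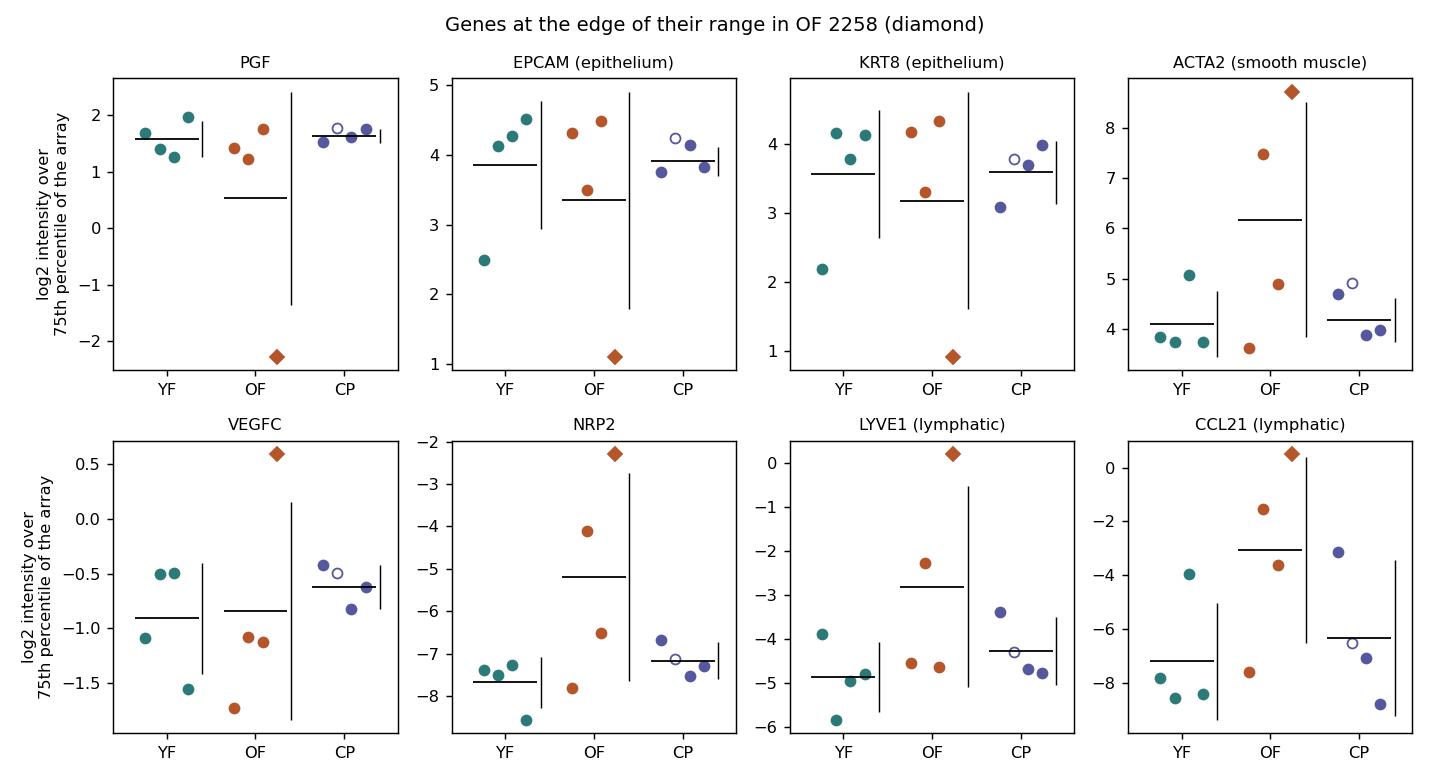
Levels by cow (log2 intensity over the 75th percentile of the array) of 8 genes at the edge of their range in OF 2258, with symbols as in the plot of the members by cow. PGF, EPCAM and KRT8 are lowest, and ACTA2, VEGFC, NRP2, LYVE1 and CCL21 highest, in OF 2258 among the 12 cows, and OF 0234 is the next highest for ACTA2, NRP2, LYVE1 and CCL21.

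ANGPT1 (chr14:59137214-59436333), the activating ligand of TEK, was not well above background in any group as a whole: probe 1 passed on 4 of 12 arrays and probe 2 on 0. No fold is given for it. Its level was -7.82, -7.57, -7.11 and -8.59 in YF, -7.85, -7.46, -8.26 and -5.87 in OF, and -7.48, -8.05 and -7.31 in CP. OF 2258 was the highest on both probes, with -5.00 on probe 1 and -6.74 on probe 2.

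ANGPT2 (chr27:4422700-4481033), which is stored in endothelial cells and released on activation, had its highest mean in CP when averaged over its probes. The level of ANGPT2 was -4.52, -5.08, -4.74 and -5.48 in YF, -4.21, -4.87, -5.10 and -4.30 in OF, and -4.07, -4.54 and -4.38 in CP. CP 1068 and 1129 lay above all YF and CP 1128 above 3 of the 4, and the OF ran through the range of both. The difference CP minus YF was 0.63 ± 0.26, or 1.54-fold (95% interval 0.03 to 1.22, limma adjusted p = 0.9999). The exact permutation test gave p = 0.114, where 3 against 4 cows cannot go below 0.0571. Its unadjusted limma p was 0.05 or less in the comparison as described and in 13 of 20 alternatives of processing or cows. OF minus YF was 0.33 ± 0.28 (exact permutation p = 0.314), and CP minus OF was 0.29 ± 0.27 (p = 0.400). The probes of this transcript correlated by r = 0.51 and did not order the groups alike. On probes 1 and 2, CP minus YF was 0.44 and 0.81, and OF minus YF was 0.54 and 0.12. CP minus OF was -0.10 on probe 1 and 0.69 on probe 2, so that only probe 2 had the highest mean in CP.

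A further ANGPT2 transcript (chr27:4445654-4480745) was dimmer, with its probes well above background on 11 and 10 arrays. It read -5.32, -5.86, -6.02 and -6.85 in YF, -5.29, -5.90, -5.57 and -5.41 in OF, and -4.83, -5.66 and -5.99 in CP. The groups overlapped, and the differences were 0.47 ± 0.31 in OF minus YF (exact permutation p = 0.257) and 0.52 ± 0.40 in CP minus YF (p = 0.343).

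Among the receptors, FLT1 (VEGFR1, chr12:31678405-31850535), which binds VEGFA and PGF and can hold VEGFA away from KDR, had close means in OF and YF. FLT1 was at -4.21, -4.46, -4.59 and -5.08 in YF, -4.72, -4.53, -4.43 and -4.79 in OF, and -4.15, -4.47 and -4.43 in CP. The lowest value was that of YF 1127, and all groups overlapped. The difference OF minus YF was -0.03 ± 0.20 (95% interval -0.49 to 0.43, exact permutation p = 0.943). The FLT1 probes printed above did not follow each other (r = 0.01, Spearman's rho = -0.25 over 12 arrays). On probe 1 the OF were higher on average by 0.22 (exact permutation p = 0.229), and on probe 2 the difference was -0.29 (p = 0.371).

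KDR (VEGFR2, chr6:72232849-72277699), the receptor through which VEGFA mainly signals, gave different answers on its probes. Averaged over both, it read -2.12, -2.37, -2.75 and -3.11 in YF, -1.64, -2.86, -0.84 and -2.86 in OF, and -0.95, -3.00 and -1.75 in CP, with overlap and a difference OF minus YF of 0.53 ± 0.47 (exact permutation p = 0.429). Probe 1 was dim, well above background on 8 of 12 arrays, and spanned -6.84 to -2.13 between cows. Probe 2 was well above background on all 12, at 1.22, 0.63, 0.78 and -0.50 in YF, 0.56, 0.30, 0.45 and 0.54 in OF, and 1.69, 0.85 and 0.86 in CP. On probe 2 the OF lay within 0.26 of each other and below every CP, while YF ran from below to above the OF. The probes correlated by r = 0.20.

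On KDR probe 2 alone, which is the brightest probe and the one that passed the filter, OF minus YF was -0.07 ± 0.33 (exact permutation p = 0.857). On the same probe CP minus OF was 0.67 ± 0.24 (95% interval 0.10 to 1.24, limma adjusted p = 0.902, exact permutation p = 0.0571). With the brightest probe of each transcript, 3.13% of all transcripts were higher in every CP than in every OF. Averaged over both probes, CP minus OF was 0.15 ± 0.65 with overlap (exact permutation p = 0.971). CP 1111 read 0.57 on probe 2, next to the highest OF at 0.56.

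FLT4 (VEGFR3, chr7:413897-442984), the VEGFC receptor of lymphatic endothelium, did not separate the groups. The FLT4 level was -4.57, -4.44, -4.86 and -3.82 in YF, -4.54, -4.28, -4.71 and -3.91 in OF, and -4.14, -3.62 and -4.59 in CP. YF 1127, OF 2258 and CP 1128 were the high cows of their groups. They were not high on the same probe: CP 1128 and YF 1127 led on probe 1 (-1.62 and -2.42), and OF 2258 on probe 2 (-4.12), and the probes correlated by r = -0.28. The difference OF minus YF was 0.06 ± 0.26 (95% interval -0.53 to 0.65, exact permutation p = 0.800).

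NRP1 (chr13:19911857-20056980), a co-receptor that presents VEGFA to KDR, varied as much within groups as between them. NRP1 was -4.07, -5.15, -4.67 and -5.70 in YF, -4.26, -4.50, -5.14 and -3.98 in OF, and -4.39, -4.59 and -4.80 in CP. Its probes, which are different sequences, agreed across cows (r = 0.93). The difference OF minus YF was 0.43 ± 0.38 (95% interval -0.43 to 1.29, exact permutation p = 0.343), with YF holding both the lowest cow and the next highest. For VEGFA, PGF, FLT1, FLT4 and NRP1, CP minus YF lay between 0.06 and 0.31, with exact permutation p of 0.343 to 0.914.

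TEK (chr8:17040335-17143857), the angiopoietin receptor, was the member that separated OF from CP. Its level was 1.17, 0.86, 0.88 and 0.28 in YF, 0.50, 0.27, 0.59 and 0.17 in OF, and 1.52, 0.90 and 0.84 in CP. All OF lay at or below 0.59 and all CP at or above 0.84, with CP 1111 at 0.92, and 3 of the 4 YF lay with the CP. The TEK probes correlated by r = 0.99 but share 58 of 60 bases, so they are close to the same measurement. CP minus OF was 0.71 ± 0.22, or 1.63-fold (95% interval 0.19 to 1.22, limma adjusted p = 0.912). The exact permutation p was 0.0571, the smallest that 3 against 4 cows can give.

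Over 20 alternatives of processing or cows, CP minus OF for TEK was 0.49 to 0.83. The unadjusted limma p was 0.00377 to 0.0420 and the adjusted p 0.157 or more. The groups did not overlap in any alternative, but most alternatives could not have produced overlap. Leaving out cows or changing only the filter or the model keeps the same TEK levels. On slide 2 alone, which drops only OF 0245, the difference was 0.77, without OF 2258 it was 0.64, and with CP 1111 it was 0.66. OF minus YF was -0.42 ± 0.21, or 1.33-fold lower in OF (95% interval -0.89 to 0.06, limma adjusted p = 0.999, exact permutation p = 0.0857). The overlap came from YF 1127 alone, and without it the difference was -0.59 ± 0.17 (95% interval -0.98 to -0.20, limma adjusted p = 0.9998). Leaving out that cow fixes the lack of overlap in advance. In that run 445 of 19755 transcripts were entirely lower in OF, against 118 with all cows. CP minus YF was 0.29 ± 0.26 (exact permutation p = 0.457).

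**Figure D4:**
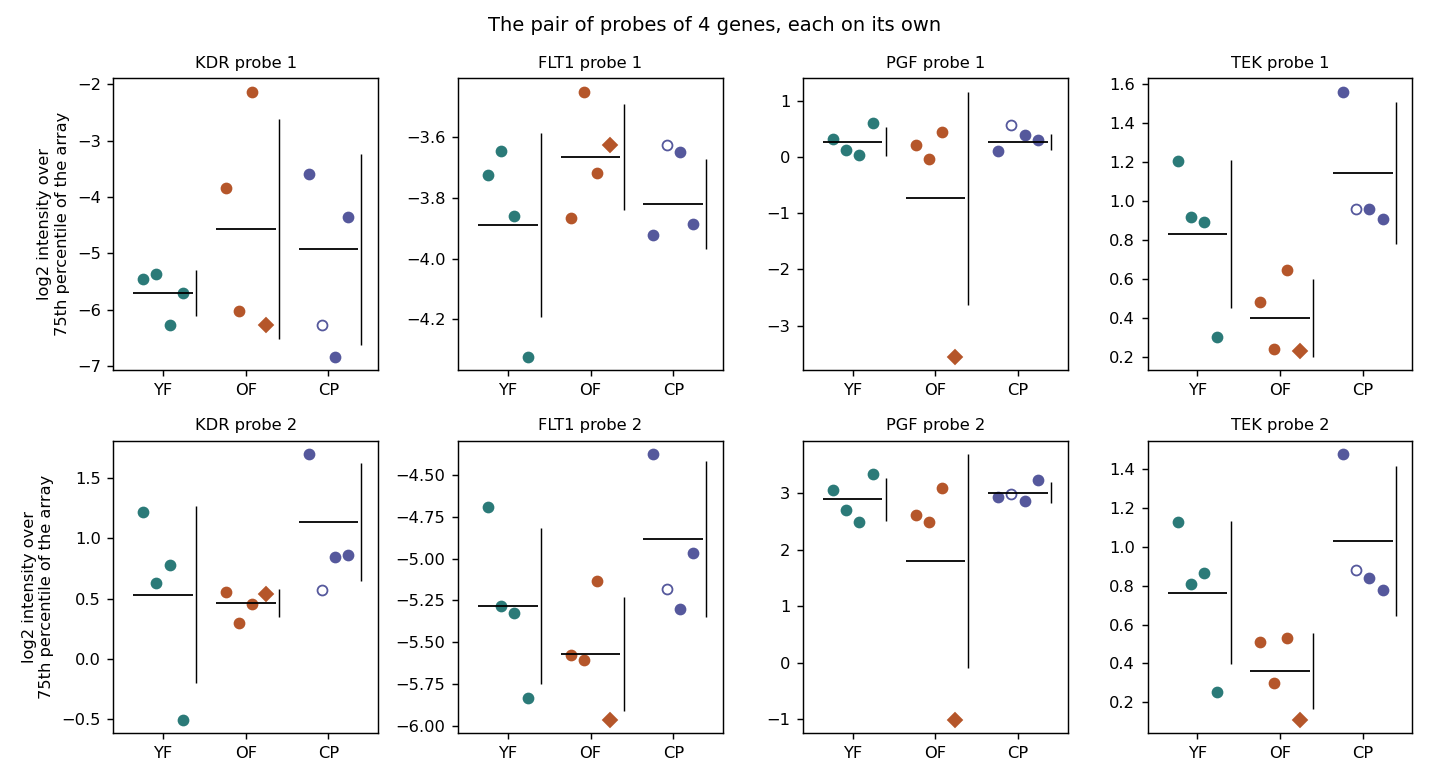
Level by cow of each probe of KDR, FLT1, PGF and TEK (log2 intensity over the 75th percentile of the array), with symbols as in the plot of the members by cow. The probes of PGF and TEK show nearly the same order of cows (Spearman's rho of 0.83 and 0.95), with OF 2258 at -3.56 and -1.01 for PGF, whereas those of KDR and FLT1 do not.

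Markers of vessels were compared in the same groups, and 0 of them passed the limma adjusted threshold in any comparison. The mean of the blood endothelial markers, over 15 of 17 genes, each well above background on all 12 arrays, ranged from -0.13 to 0.52 in CP, -0.22 to 0.08 in OF and -0.62 to 0.02 in YF, so that the groups overlapped. In CP against YF all 15 were higher on average, by a median of 0.45, with 1 at an unadjusted p of 0.05, beside 3.03% of all transcripts. In CP against OF 13 were higher and 2 lower, by a median of 0.34, with 3 at that p, beside 4.57%. The 7 of 8 pericyte markers measured on all arrays had means of 0.24 to 0.44 in CP, -0.51 to 0.27 in OF and -0.72 to 0.55 in YF. Red cell genes were at -0.16 to 0.81 in CP, -0.45 to 0.19 in OF and -0.41 to 0.03 in YF. In OF against YF the endothelial markers were 12 higher and 3 lower, by a median of 0.08. With their mean as a covariate, TEK was lower in OF, with a difference of -0.52 ± 0.14 (95% interval -0.85 to -0.19, limma adjusted p = 0.996). Their part in the TEK and ANGPT2 levels of CP was not tested.

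Across the 12 cows, the levels of FLT1 (r = 0.80, permutation p = 0.00286, adjusted over the 9 members 0.0257, rho = 0.74) and TEK (r = 0.72, permutation p = 0.00796, adjusted 0.0358, rho = 0.64) rose with the mean of the blood endothelial markers. ANGPT2 (r = 0.66, adjusted permutation p = 0.0559, rho = 0.43) and KDR (r = 0.61, adjusted permutation p = 0.0716, rho = 0.71) followed, and the r of VEGFA, VEGFC, PGF and NRP1 lay between 0.20 and 0.31. The calls differed by rank: FLT1 and KDR passed (adjusted permutation p = 0.0499 for each), and TEK and ANGPT2 did not (0.0879 and 0.294). FLT4 had r = -0.45. The FLT1 level averages probes that did not follow each other (r = 0.01 between them). Correlations of the single FLT1 probes with the markers were not computed. Without the cows farthest from the median, CP 1068 and YF 1127, r was 0.40 for FLT1, 0.46 for TEK and 0.32 for KDR, and no member passed after adjustment, so the calls over all cows rest on those cows, although these r stayed above 0 over a narrower range of the markers. On deviations from the group means r was 0.80 for TEK, 0.76 for FLT1, 0.70 for KDR and -0.81 for FLT4, with adjusted permutation p of 0.00783, 0.00924, 0.0246 and 0.00924. The permutations did not allow for the group means removed, so the p-values on these deviations tend to be too small. By rank FLT4 did not pass on these deviations (rho = -0.57, adjusted permutation p = 0.125). Its probes 1 and 2, which disagreed, had r of -0.40 and -0.11 with the markers over the 12 cows. On slide 2 alone, with 8 cows, r was 0.87 for KDR (adjusted permutation p = 0.00585), and 0.81 for FLT1 and 0.75 for TEK did not pass (0.0553 and 0.0760). Slide 1 held 4 cows, too few for a value.

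**Figure D5:**
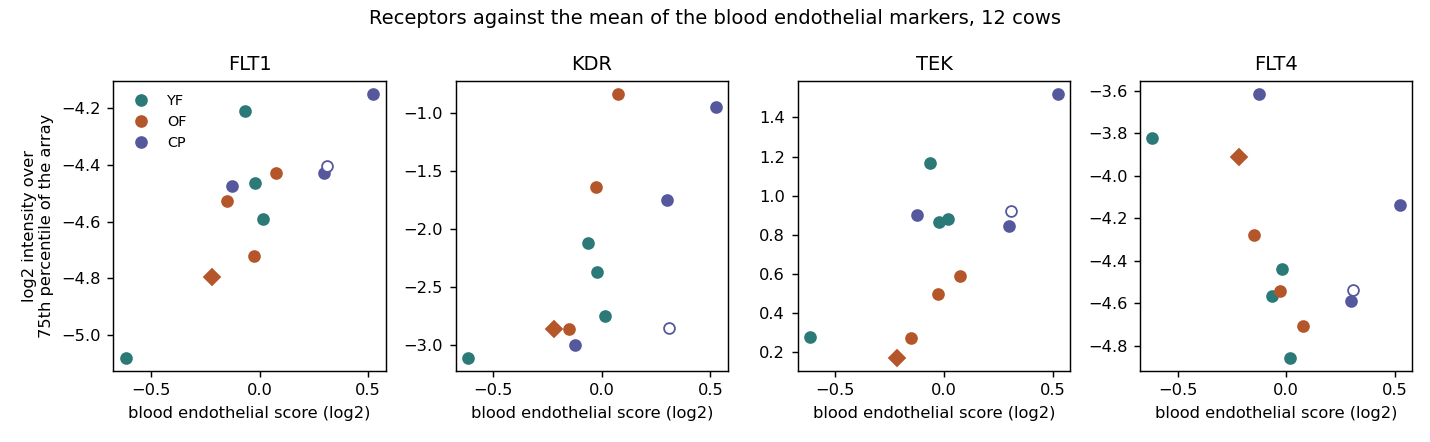
Levels of FLT1, KDR, TEK and FLT4 (log2 intensity over the 75th percentile of the array) against the mean of 15 blood endothelial markers, each centred over the arrays (log2), in 12 cows. FLT1 and TEK rise with the markers (r of 0.80 and 0.72) and FLT4 does not (r of -0.45). The FLT1 level averages probes that did not follow each other. YF 1127, at -0.62, and CP 1068, at 0.52, are the outermost cows.

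The other genes of the pathway were given by a list of 57 genes, all on the array. In OF against YF 51 were measured, 0 passed the limma adjusted threshold and 4 had an unadjusted p of 0.05 or less, beside 2.42% of all transcripts, 2 higher and 2 lower in OF, with a median difference of 0.04 against 0.01 over all transcripts. The remaining ligands, VEGFB, VEGFD and ANGPT4, and the receptors TIE1 and PTPRB, gave 0 of 5 at that threshold. The same held for the hypoxia factors (0 of 6) and for the Notch and tip cell genes (0 of 9), which set the number of sprouts.

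Of the 21 signal transducers measured, 3 had such a p in OF against YF, beside 2.42% of all transcripts. FOXO1, a transcription factor that is held in check by the PI3K and AKT branch of TEK and KDR signalling, was -0.21, 0.51, 0.26 and -0.05 in YF and 0.60, 0.71, 0.59 and 1.59 in OF. Each OF lay above each YF, by 0.74 ± 0.27 on average (exact permutation p = 0.0286, the smallest possible, limma adjusted p = 0.999). GRB14, an adaptor protein of receptor kinases, was -5.32, -4.26, -3.40 and -4.76 in YF and -3.89, -2.50, -3.31 and -0.89 in OF, higher by 1.79 ± 0.66 with overlap (exact permutation p = 0.0571). With the mean of the smooth muscle markers as a covariate, the FOXO1 difference was 0.40 ± 0.27 and that of GRB14 0.64 ± 0.43. Without OF 2258 they were 0.50 ± 0.20 and 1.20 ± 0.49. Over 8 of 10 markers this mean was -1.04 to 4.08 in OF and -1.48 to 0.09 in YF.

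MAPK3, the kinase ERK1, was -4.17, -4.37, -4.27 and -4.32 in YF and -4.52, -4.49, -4.89 and -5.32 in OF. Every OF was below every YF, with a difference of -0.52 ± 0.20 (exact permutation p = 0.0286, limma adjusted p = 0.999), but with normexp background correction it was -0.03 ± 0.09 and on its brightest probe -0.13 ± 0.17, with overlap. Of 10 inhibitors of vessel growth 1 had an unadjusted p of 0.05 or less, beside 2.42% of all transcripts. TNMD, tenomodulin, read -0.87, 0.77, 0.08 and -0.57 in YF and -0.96, -0.99, -1.75 and -3.84 in OF, a difference of -1.74 ± 0.66 with no overlap (exact permutation p = 0.0286, limma adjusted p = 0.999). It was -1.08 ± 0.41 without OF 2258 and -0.96 ± 0.68 with the smooth muscle covariate.

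In CP against YF 4 of 53 genes of the list had an unadjusted limma p of 0.05 or less, all higher, beside 3.03% of all transcripts. In CP against OF these were 6 of 53, with 5 higher and 1 lower, beside 4.57%. Notch and tip cell genes made up 3 of the 4 and 3 of the 6, of 9 measured. Against YF, 4 of the 53 genes were higher in every CP and 0 lower, beside 1.51% and 2.32% of all transcripts. Against OF, 6 were higher in every CP and 2 lower, beside 2.86% and 2.93%. ESM1, a secreted marker of sprouting tip cells, was -5.46, -4.38, -4.69 and -5.27 in YF, -4.59, -5.29, -4.37 and -6.13 in OF, and -2.88, -3.35 and -4.36 in CP. All CP lay above all YF and OF, although CP 1129 was next to OF 0245 (-4.36 and -4.37), and CP 1111 was at -4.41. CP minus YF was 1.41 ± 0.40 (limma adjusted p = 0.9999) and CP minus OF 1.56 ± 0.51 (adjusted p = 0.912), each with an exact permutation p of 0.0571, the smallest possible.

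The Notch ligand JAG1 was 0.36 to 0.65 in CP, -0.34 to 0.30 in YF and -0.42 to 0.22 in OF, without overlap in either comparison, but CP 1111, at 0.27, lay below YF 1069 (differences of 0.54 ± 0.20 and 0.63 ± 0.20). HEY2, a target of Notch, was -2.21 to -1.33 in CP, -2.92 to -2.13 in YF and -2.54 to -2.28 in OF (differences of 0.79 ± 0.27 and 0.69 ± 0.23), without overlap against OF. PTPRB, the phosphatase of vascular endothelium that acts on TEK, was -0.91 to -0.34 in CP, -2.19 to -1.06 in YF and -1.60 to -1.38 in OF. The CP overlapped neither group, and CP minus OF was 0.78 ± 0.19 (exact permutation p = 0.0571, limma adjusted p = 0.893). Its unadjusted limma p was 0.05 or less in all alternatives of CP against OF. TIE1 was -1.71 to -1.54 in CP, -2.72 to -1.72 in YF and -2.06 to -1.72 in OF, without overlap by a narrow margin. THBS2 was higher in CP than in YF by 0.95 ± 0.32, SERPINF1 was higher than in OF by 0.51 ± 0.22 and GRB14 differed from OF by -1.88 ± 0.66, each at an unadjusted limma p of 0.05 or less. Beside the blood endothelial and pericyte marker means given above, the part of vessel content in these differences was not tested.

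By FCROS, which ranks the 16 ratios of an OF to a YF, the closest of the members to a call by f-value was TEK, with 0.0323 against a threshold of 0.025. The TEK mean was 1.36-fold lower in OF, short of the fold change of 1.5 that a call also needs. With no trimming the f-value of TEK was 0.0202, and it was still not called. KDR had an f-value of 0.875 with a ratio of 1.68, and PGF 0.0891. KDR, averaged over its dim and its bright probe, was called higher in OF without OF 0234 or without OF 2258, with a ratio of 1.97 in both. On the bright KDR probe 2 alone, OF minus YF over all cows was -0.07. NRP1 was called higher in OF without YF 1069, with a ratio of 1.63. In these runs 4.52% to 5.35% of all transcripts were called. From the list of 57 FCROS called 4 higher in OF (NRP2, GRB14, FOXO1 and THBS1) and 1 lower (TNMD), beside 4.94% of all transcripts. THBS1, thrombospondin-1, was 4.28 in OF 2258 and -0.01 to 2.36 in the others. Without OF 2258 the difference OF minus YF of THBS1 was 0.42 in place of 1.23, and neither THBS1 nor FOXO1 was called. NRP2, GRB14 and TNMD were still called without that cow and SEMA3A was called lower in OF, beside 4.52% of all transcripts. NRP2 was not well above background in most cows.

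The genes whose levels followed a member most closely over the 12 arrays were read off as a description, from 16064 named transcripts. For VEGFA they were COL6A2 (r = 0.96), MIER2 and SSRP1, for ANGPT2 DDAH1 (r = 0.91), ANKH and JAM2, for KDR FAM110D (r = 0.90), MAP3K11 and TUBGCP2, and for TEK TMEM106A (r = 0.94), PTK2 and TMEM88. Only PTK2, the focal adhesion kinase, is on the list of pathway genes. These genes share arrays and scaling with the members, and each r is picked as the highest of many.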

How the data were processed

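Each biopsy RNA was hybridized in 1 colour (Cy-3) to its own custom bovine array. The authors deposited the processed intensity of every spot, corrected for background by Agilent Feature Extraction 10.7.3.1 and not normalized between arrays. The 1319 control spots were left out, as were 66 outlier-flagged probes. The log2 of the intensity minus that of the 75th percentile of the array (968 to 1597 units) was averaged over the probes of a transcript. Groups were compared with limma 3.58.1 (R 4.3.3) across all transcripts for which some probe passed the well-above-background flag throughout at least 1 of the groups compared, with Benjamini-Hochberg adjustment, and with exact two-sided permutation tests in SciPy 1.17.1. Correlations used 100000 permutations. FCROS was coded with a trim of 0.25, f-values beyond 0.025 and 0.975 and a fold change of 1.5. The replicate is the animal, and p-values measure the spread between these animals. Members and lists were chosen with earlier results of these data known. The named genes are all members, the list genes at an unadjusted p of 0.05 or without overlap in OF against YF, and the 3 transcripts most like VEGFA, ANGPT2, KDR and TEK; those of CP were named after their values were seen. Symbols came from RefSeq accessions for 12774 transcripts, from the array for 8672 and from its descriptions for 17. SOX7, SOX18 and ACTG2 were not matched. Alternatives were quantile and median scaling, normexp (offset 50), the brightest probe, other filters, slide as a block or slide 2 alone, all groups in 1 fit, array weights, marker covariates, CP 1111 and each cow left out. Leaving out dim probes, single probes, correlations without OF 2258 and CP comparisons with the slide as a block were chosen after seeing the data. Limma and FCROS were tested on simulated data. Arrays give no counts, and their number limits the precision.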

Additional observations from a re-analysis of the deposited data

Results flagged for a closer look

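PGF in OF 2258 was at -2.28, while the other OF lay between 1.23 and 1.76. The gap to the nearest OF was 0.868 of the range of the group, above the critical value of 0.829 for 4 samples. In all, 22 groups of 4 cows (11 transcripts in OF and in YF) were tested in this way and this was the only such value, where chance gives about 1 in 20.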

How the results depend on the processing

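The 30 differences of a member transcript between groups were recomputed under 608 alternatives in all: 566 kept their direction and 42, from 14 differences, changed it, and the lowest adjusted p was 0.157. Each that changed was near 0 or had overlapping groups, and the cause was not tested. For OF minus YF, VEGFC (0.07) was -0.34 with array weights, -0.73 with the smooth muscle covariate and -0.41 to 0.37 with each cow left out in turn. PGF (-1.05) was 0.27 with that covariate. FLT1 (-0.03) was 0.12 with normexp, 0.22 on the brightest probe, 0.0121 with the slide as a block, 0.0301 with array weights and -0.20 to 0.0945 with a cow left out. KDR (0.53) was -0.0687 on the brightest probe and with only the probes that passed the filter, and -0.0179 with array weights. FLT4 (0.06) was -0.35 on the brightest probe, -0.0556 with the slide as a block, -0.0529 on slide 2 alone, -0.11 with the smooth muscle covariate and -0.0900 to 0.26 with a cow left out. For CP minus YF, VEGFA was -0.0345 to 0.15 and PGF -0.0514 to 0.19 with a cow left out, VEGFC was -0.00495 with array weights, and PGF was -0.19 on slide 2. For CP minus OF, FLT1 (0.27) was -0.0337 with normexp and -0.15 on the brightest probe. KDR (0.15) was -0.0172 with array weights, -0.0852 with CP 1111, with or without the slide as a block, and -0.32 to 0.70 with a cow left out. The second ANGPT2 transcript was -0.15 with normexp and -0.28 to 0.29 with a cow left out. VEGFC (-0.0780 to 0.70), FLT4 (-0.00152 to 0.48) and NRP1 (-0.35 to 0.0389) also changed with a cow left out. FCROS called 0 to 1 members with a cow left out, beside 4.52% to 5.91% of all transcripts. The planned differences within arrays, ANGPT2 minus ANGPT1 and KDR minus FLT1, are not given, since ANGPT1 was not well above background and the probes of KDR and of FLT1 disagreed.

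With the blood endothelial markers, 2 members correlated by Pearson's r after adjustment in all cows, 0 without the outermost cows, 1 on slide 2, 4 without OF 2258 and 4 on deviations from group means. The p-values on deviations did not allow for the means removed and tend to be too small. By rank FLT4 did not pass on those deviations. Without the outermost cows r was -0.64 for VEGFA, -0.10 for VEGFC and -0.48 for NRP1, and without OF 2258 it was -0.15 for PGF.

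Over all transcripts, those with an unadjusted p of 0.05 or less in OF against YF numbered 478, but 767 with the slide as a block, 937 without OF 0233 and 2175 with array weights. Those without overlap, 184 higher and 118 lower, were 431 and 79 with normexp. In CP against YF the number was 606, but 1018 with the slide as a block in a joint fit of the 3 groups (553 in the joint fit without the block), 973 without CP 1068 and 1312 with array weights, and in CP against OF 911, but 1688 without CP 1068 and 3252 with array weights. No paired analysis was possible because the groups share no replicate numbers. With signals near background, ANGPT1 limits what can be said of the balance of angiopoietins.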
